A study of Mus musculus with 20 samples.

Results

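The genes described here are 10 transcription factors and signal-response genes of the AP-1 and immediate early class: Fos, Fosb, Fosl1, Fosl2, Jun, Junb, Jund, Egr1, Ier3 and Myc. They were chosen by name, as the probes whose gene name in the scanner files equals one of the 10, and make up 10 of the 25043 gene symbols and 16 of the 56605 probes on the array. One further probe, named Junb in only 1 of the 2 versions of the array design, was left out. Expression was measured in intestinal tissue of 20 C57BL6/j mice, with 1 one-colour Agilent array per mouse. Cre control mice (6 arrays) were VillinCreER/0, carrying a tamoxifen-inducible Cre recombinase that the Villin promoter drives in the gut epithelium, and BRAFV600E mice (6 arrays) were VillinCreER/0/BrafV600E-LSL/+, so that tamoxifen also switches on the mutant kinase there. Both groups were between 8 and 12 weeks old, both received 3 daily doses of 2 mg tamoxifen, and their tissue was taken 3 days after the last dose. MEKi mice (4 arrays) received the MEK inhibitor PD184352 and Vehicle mice (4 arrays) its carrier, in each case as 3 injections on consecutive days after 2 injections of 1 mg tamoxifen. No label states the genotype of those 8 mice, which a figure legend of the study describes as mutant, and for induced mice in general the methods give an age of 8 to 12 weeks. The treatment text in the labels, a statin given to female mice, is the same on all 20 arrays and fits none of the 4 groups.

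AP-1 is a transcription factor built as a pair of leucine zipper proteins, either 2 JUN proteins or 1 JUN and 1 FOS protein. Immediate early genes are those whose transcription starts within minutes of a growth signal without new protein being made. The RAS, RAF, MEK and ERK kinase cascade is one of their best known inputs: ERK phosphorylates ETS factors bound beside serum response factor, which switches on FOS and EGR1, and it also phosphorylates and stabilizes FOS family proteins and MYC. In the gut epithelium MYC and JUN are known for their part in crypt proliferation.

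Promoter windows of 7 of the 10 genes were found in the RefSeq table (GRCm38.p6). The 2 windows that held any of the motifs searched, those of Fosb and Fosl2, are shown here as the 250 bases before the transcription start, 5′ to 3′ on the gene's strand, with a site for EGR factors, the family of Egr1, in capitals. The Fosb stretch is chr7:19310046-19310295 on the minus strand and the Fosl2 stretch is chr5:32136222-32136471 on the plus strand.
Fosb: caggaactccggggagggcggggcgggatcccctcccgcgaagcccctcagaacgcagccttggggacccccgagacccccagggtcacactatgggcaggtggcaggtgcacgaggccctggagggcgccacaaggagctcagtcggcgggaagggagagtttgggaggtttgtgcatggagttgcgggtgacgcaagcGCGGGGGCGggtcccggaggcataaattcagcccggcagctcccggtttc
Fosl2: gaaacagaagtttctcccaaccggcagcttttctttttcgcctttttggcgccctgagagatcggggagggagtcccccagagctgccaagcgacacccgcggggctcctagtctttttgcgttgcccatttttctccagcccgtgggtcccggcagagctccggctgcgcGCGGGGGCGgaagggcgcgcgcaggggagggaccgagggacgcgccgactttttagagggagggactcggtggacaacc
The EGR motif searched was GCGNGGGCG, on both strands. In each of these windows 1 match was found, its first base lying 50 bases before the Fosb start and 79 bases before the Fosl2 start, and 5.55% of all 32851 windows of the same length held one. The AP-1 site TGANTCA (7.81% of all windows), the cAMP response element TGACGTCA (1.79%), the E-box CACGTG (7.15%), the ETS site CCGGAAGT (3.89%) and the CArG box bound by serum response factor (1.63%) were in none of the 7 windows, which says only that these letters are not within these 300 bases.

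Levels are given below as log2 of the processed signal minus the array's 75th percentile, so that 0 stands for a probe as bright as the 75th percentile, and they are compared for 1 probe at a time. A gene with several probes is represented by its brightest probe. Between 60.8% and 76.8% of spots per array were well above background. The 12 arrays of the mutant experiment lay on 2 slides, slide 1 holding all 6 controls with BRAFV600E replicates 1 and 2, and slide 2 BRAFV600E replicates 3 to 6, where the spike-in RNA gave a slope of 0. MEKi and Vehicle arrays shared slide 3, in separate rows, so row and treatment cannot be told apart. Vehicle replicate 2 alone carried strong exocrine pancreas signal, with a mean over the 5 marker genes of 7.46. Y-linked transcripts were high on 3 of 6 Cre control, 4 of 6 BRAFV600E, 4 of 4 MEKi and 2 of 4 Vehicle arrays, so the inhibitor comparison is not balanced for sex. Intestinal epithelium was well represented on all arrays: the mean level of its 9 marker genes ranged from 4.97 to 6.43 in BRAFV600E and from 5.92 to 6.42 in Cre control arrays. It ranged from 6.26 to 6.68 in MEKi and from 5.97 to 6.70 in Vehicle arrays. In bulk tissue, fewer cells of a type and less RNA per cell cannot be told apart. Nothing states that replicates came from separate litters, and p-values measure the spread between these mice only.

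The first comparison asks what 3 days of mutant BRAF expression changes in the intestine. Of the 10 genes, Egr1 and Myc rose in BRAFV600E tissue at an adjusted p under 0.05 (limma, two-sided, Benjamini-Hochberg over the 19040 genes tested), and the other 8 did not pass. Of all genes tested 12.4% passed. On the brightest probe of each gene, all 10 genes had a log2 fold change above 0, against 48.4% of all genes. The median over the 10 was 0.59, against −0.02 over all genes. Dimmer probes that were well above background on all arrays of this comparison gave −1.10 for Fosl2, −0.16 for Myc, −0.09 for Jund and 0.51 for Junb. With normexp background correction 9 of the 10 genes were above 0. Egr1 was the only 1 of the 10 whose groups did not overlap, which held for 7.36% of all genes tested.

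Egr1, a zinc finger factor and a direct ERK response gene, ranged in Cre control mice from −1.77 over a median of −1.02 to −0.41. In BRAFV600E mice it ranged from −0.32 over a median of 0.22 to 1.09. All 6 mutant arrays therefore lay above all 6 controls, by little between the highest control, replicate 4, and the lowest mutant, replicate 1. The log2 difference was 1.26 ± 0.27 (SE, n = 6 and 6), a 2.39-fold rise, with a limma adjusted p of 0.0118. With slide as a block it was 1.43 with a limma adjusted p of 0.0437, and within slide 1 alone, with 2 mutant arrays, 1.43 with a limma adjusted p of 0.112. Over the 5 arrays of this comparison whose spike-in slope was in range it was 1.21 with a limma adjusted p of 0.388.

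Myc, a growth-promoting basic helix-loop-helix factor, ranged from −1.55 over a median of −1.22 to 0.10 in Cre control mice and from −0.41 over a median of −0.19 to 0.67 in BRAFV600E mice. The groups overlapped through Cre control replicate 1 alone, at 0.10, and the next highest control, replicate 4, was at −0.62. On the log2 scale the difference was 0.94 ± 0.28 (SE), a 1.92-fold rise, with a limma adjusted p of 0.0488. This call was narrow: it was lost in 10 of the 12 fits that left out 1 array, where the limma adjusted p reached 0.104, and with slide as a block (1.22, limma adjusted p 0.0840). The second Myc probe, which was well above background on all 12 arrays but dimmer, gave −0.16 ± 0.16 (SE).

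Among the FOS family, the inducible partners of JUN, none passed the test. Fosl2 came closest. Its Cre control levels ranged from 2.07 over a median of 2.24 to 2.54, its BRAFV600E levels from 2.31 over a median of 2.85 to 3.01, and 5 of the 6 mutant arrays lay above every control, replicate 1 being the exception. The log2 fold change was 0.50 ± 0.15 (SE, limma adjusted p 0.0531), and without BRAFV600E replicate 1 it was 0.59 with a limma adjusted p of 0.0273.

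Fosb ranged from −2.97 over a median of −2.04 to −1.22 in Cre control and from −2.06 over a median of −1.27 to 0.06 in BRAFV600E mice. Its log2 fold change was 0.90 ± 0.36 (SE, limma adjusted p 0.115), with 3 mutant arrays above every control. Fos itself, the family's founding member, ranged from 2.10 over a median of 3.02 to 3.48 in controls and from 3.06 over a median of 3.45 to 3.82 in mutants. Its lowest mutant lay above 3 of the controls, yet the difference of 0.53 ± 0.24 (SE, limma adjusted p 0.168) did not pass, and its 95% interval ran from −0.00355 to 1.06.

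Fosl1, which encodes FRA1 and is known as an ERK-dependent member, was near the floor of the array. It was well above background on 3 of 6 Cre control arrays and 5 of 6 BRAFV600E arrays. Control levels ran from −7.02 over a median of −4.88 to −3.06 and mutant levels from −4.87 over a median of −4.33 to −3.37, so that the controls enclosed the mutants on both sides. The log2 fold change was 0.74 ± 0.61 (SE, limma adjusted p 0.449), and with normexp background correction its sign turned, to −0.31.

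None of the JUN genes, whose proteins are in every AP-1 pair, passed the test. Jun ranged from 2.96 over a median of 3.55 to 3.92 in controls and from 3.21 over a median of 3.67 to 4.53 in mutants, a difference of 0.21 ± 0.23 (log2, SE, limma adjusted p 0.592). Junb ranged from 3.19 over a median of 4.36 to 4.76 in controls and from 4.17 over a median of 4.62 to 4.77 in mutants, a difference of 0.36 ± 0.24 (log2, SE, limma adjusted p 0.349). The Junb difference came largely from 1 low control: without Cre control replicate 1 it was 0.15. Jund, the most steadily expressed JUN gene in many tissues, ranged from 3.02 over a median of 5.13 to 5.71 in controls and from 4.69 over a median of 5.66 to 5.78 in mutants. Its difference of 0.66 ± 0.40 (log2, SE, limma adjusted p 0.292) fell to 0.30 without Cre control replicate 6, the low array.

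Ier3, an early response gene that promotes cell survival, ranged from −1.38 over a median of −1.16 to −0.42 in Cre control mice and from −1.11 over a median of −0.83 to −0.57 in BRAFV600E mice. Its log2 difference was 0.26 ± 0.17 (SE, limma adjusted p 0.322). Control replicate 2 was higher than every mutant array, and without it the difference was 0.39 with a limma adjusted p of 0.0885.

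**Figure D1:**
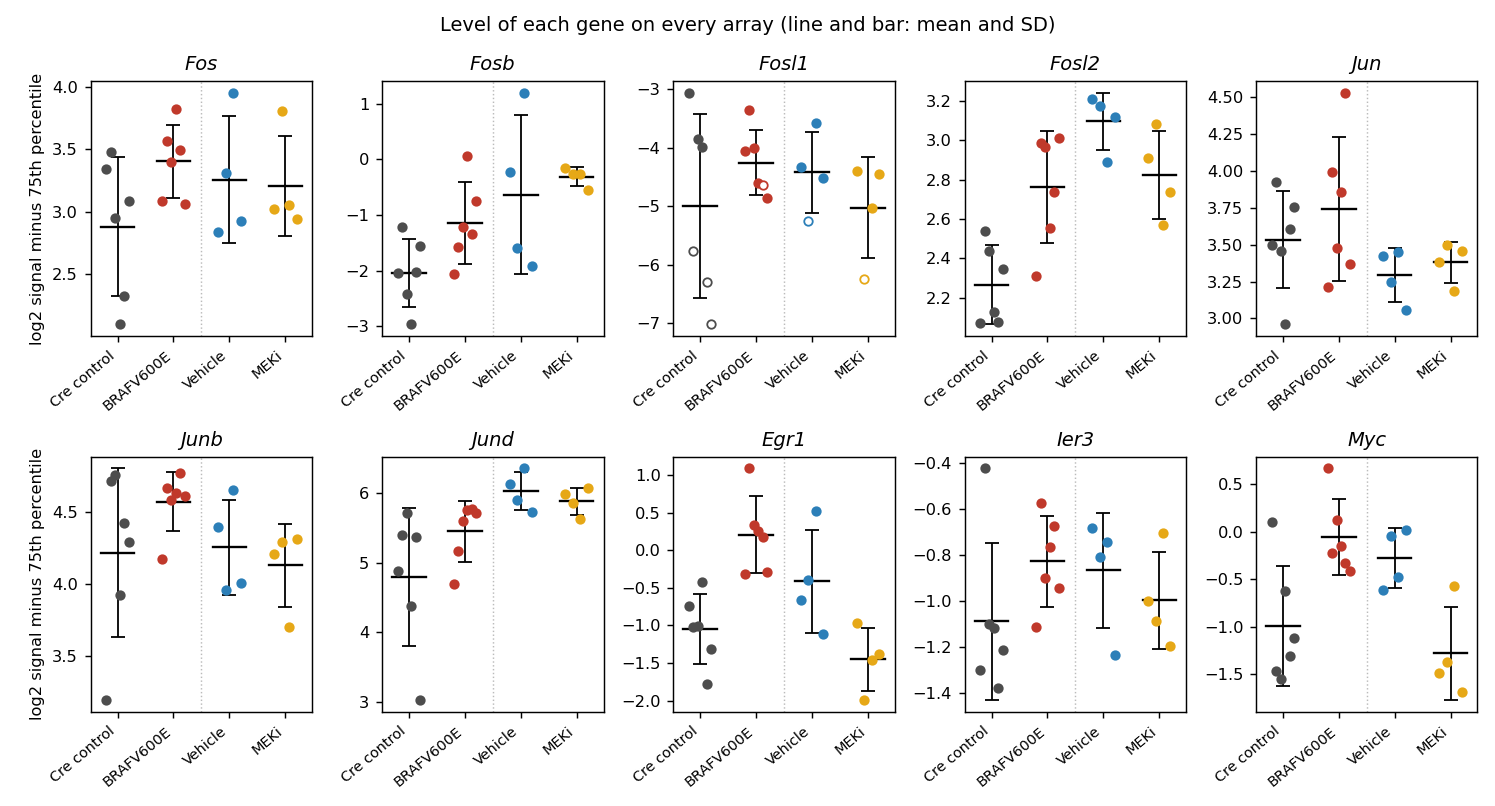
Level of each of the 10 genes on every array, as log2 signal minus the array's 75th percentile (vertical axis), by group, with a line and bar for the mean and SD of each group. Open points were not well above background, and the dotted line separates the experiments. Egr1 in BRAFV600E mice lay between −0.32 and 1.09, above all Cre control arrays.

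The second comparison asks what MEK inhibition changes in tissue that the study describes as mutant. None of the 10 genes passed the test over the 19231 genes (limma), of which 1.98% passed, while 2 of the 10, Egr1 and Myc again, had an unadjusted p under 0.05, as did 16.4% of all genes (3148 of 19231). On the brightest probe of each gene, the log2 fold change was below 0 for 8 of the 10 genes. It was above 0 for Fosb and Jun, against 54.7% of all genes above 0. The median over the 10 was −0.14, against 0.04 over all genes. For none of the 10 did MEKi and Vehicle arrays separate without overlap, which they did for 12.2% of all genes.

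Myc was at −1.49, −1.37, −0.57 and −1.69 in the MEKi mice and at −0.61, −0.05, −0.48 and 0.02 in the Vehicle mice. Only MEKi replicate 3 reached into the Vehicle range, and it lay just above Vehicle replicate 1. Myc was thus 2.01-fold lower with the inhibitor (SE 0.27 on the log2 scale, n = 4 and 4), with a limma adjusted p of 0.113 and a 95% interval of the log2 difference from −1.62 to −0.39. Without Vehicle replicate 2, the array with pancreas signal, the log2 difference was −0.93 with a limma adjusted p of 0.175.

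Egr1 was at −0.96, −1.99, −1.47 and −1.38 in the MEKi mice and at −0.66, −0.39, 0.52 and −1.11 in the Vehicle mice. The 4th Vehicle mouse lay among the MEKi mice and the other Vehicle mice above them. The difference was −1.04 ± 0.36 (SE), with a limma adjusted p of 0.199 and a 95% interval from −1.86 to −0.22. Without Vehicle replicate 2 it was −1.03.

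None of the FOS family members passed the test under MEKi. Fos was at 3.02, 3.80, 3.06 and 2.94 with the inhibitor and at 2.83, 3.31, 3.95 and 2.92 without it, each group having 1 high mouse, and the difference was −0.05 ± 0.29 (SE). Its 95% interval, from −0.73 to 0.62, leaves room for changes in either direction. Fosb was at −0.16, −0.27, −0.25 and −0.55 in MEKi mice and at −0.23, −1.59, 1.202 and −1.91 in Vehicle mice. The Vehicle mice thus spread over 3 log2 units (SD 1.42) and the MEKi mice over less than 1 (SD 0.17), and the difference was 0.33 ± 0.62 (SE). Adjusted for Y-linked signal it was −0.82, with a limma adjusted p of 0.442.

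Fosl2 was at 2.91, 3.08, 2.57 and 2.74 in MEKi mice and at 3.21, 3.17, 2.89 and 3.12 in Vehicle mice, a difference of −0.27 ± 0.15 (SE, limma adjusted p 0.425). Fosl1 was at −4.39, −6.25, −5.02 and −4.44 in MEKi mice and at −4.34, −5.26, −3.57 and −4.51 in Vehicle mice. In each group 3 of the 4 arrays were well above background for Fosl1, and the difference was −0.61 ± 0.48 (SE, limma adjusted p 0.606).

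For the JUN genes and Ier3 the mean differences were 0.09 ± 0.14 for Jun, −0.12 ± 0.21 for Junb, −0.14 ± 0.17 for Jund and −0.13 ± 0.17 for Ier3 (all log2, SE). Their 95% intervals lay within −0.61 and 0.40. On the probes that stand for these 4 genes, the mean fall of the brighter Myc probe was thus outside the interval. The interval of Myc itself, from −1.62 to −0.39, overlapped those of Junb, Jund and Ier3 but not that of Jun. Differences between genes were not tested. The dimmer Junb probe A_55_P2011106, well above background on all MEKi and Vehicle arrays, gave −0.33 ± 0.30 (SE), and no interval was computed for it. The dimmer Myc probe gave −0.20 ± 0.16 (SE). Jun levels ran from 3.19 to 3.50 in MEKi and from 3.06 to 3.45 in Vehicle mice, Junb from 3.70 to 4.31 and from 3.95 to 4.65, Jund from 5.62 to 6.07 and from 5.73 to 6.36, and Ier3 from −1.20 to −0.70 and from −1.23 to −0.68. All 4 pairs of ranges overlapped.

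**Figure D2:**
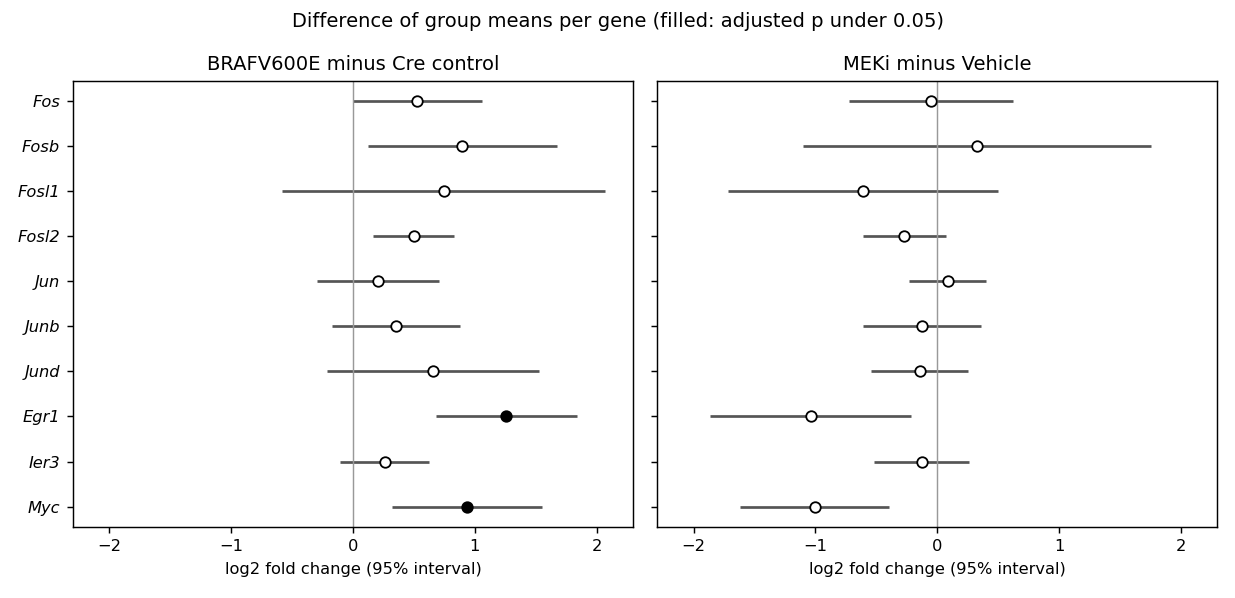
Log2 fold change with its 95% interval for each gene (horizontal axis), BRAFV600E minus Cre control on the left and MEKi minus Vehicle on the right. Filled points passed at an adjusted p under 0.05, which only Egr1 (1.26) and Myc (0.94) did on the left and none did on the right.

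Of the 10 genes, 5 had a single probe and 5 had several, and where several were measured they did not always move together. The probes of Fosl2, Jund and Junb that were well above background are shown by their first 30 of 60 bases, since the size or sign of the change depended on which was read. The dimmer probe of each gene is given first.
Fosl2 A_51_P507242: gattgctgagctgcagaaggagaaggagaa
Fosl2 A_55_P2803815: gctatggaggaaagaacatattaaaaactt
Jund A_55_P2892246: tgcgtgttgagtgtgtgtttccttgtgttg
Jund A_51_P357744: ttttgctacgagtccacattcctgttccgt
Junb A_55_P2011106: agggctttgcggacggttttgtcaaagccc
Junb A_51_P159194: ttcgtgtctaaagtctattttaagatgtgt
The Fosl2 probes lie on mm9 at chr5:32455088-32455147 and chr5:32460076-32460135. The first fell short of the test with −1.10 ± 0.41 (SE, limma adjusted p 0.102 over all probes) in BRAFV600E against Cre control, opposite to the 0.50 of the second. In MEKi against Vehicle the signs were again opposite, 0.34 ± 0.26 against −0.27 ± 0.16 (SE). Over the 20 arrays the deviations of the 2 probes from their group means correlated at r = 0.22.

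The Jund probes, at chr8:73224302-73224361 and chr8:73224436-73224495, gave −0.09 ± 0.24 and 0.66 ± 0.40 (SE) in the mutant comparison and correlated at r = 0.58. The Junb probes, at chr8:87501881-87501940 and chr8:87500843-87500902, gave 0.51 ± 0.28 and 0.36 ± 0.25 (SE) but correlated at r = −0.16. The 2 Myc probes, at chr15:61820925-61820984 and chr15:61821417-61821476, correlated at r = 0.26, and in MEKi against Vehicle the first gave −0.20 ± 0.16 (SE) and the second, which stands for the gene, the 2.01-fold lower level above. A second Fosb probe and another Junb probe were each well above background on only 1 of the 12 arrays of the mutant experiment. The change of Egr1, which has 1 probe, could therefore not be compared with that of another probe.

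**Figure D3:**
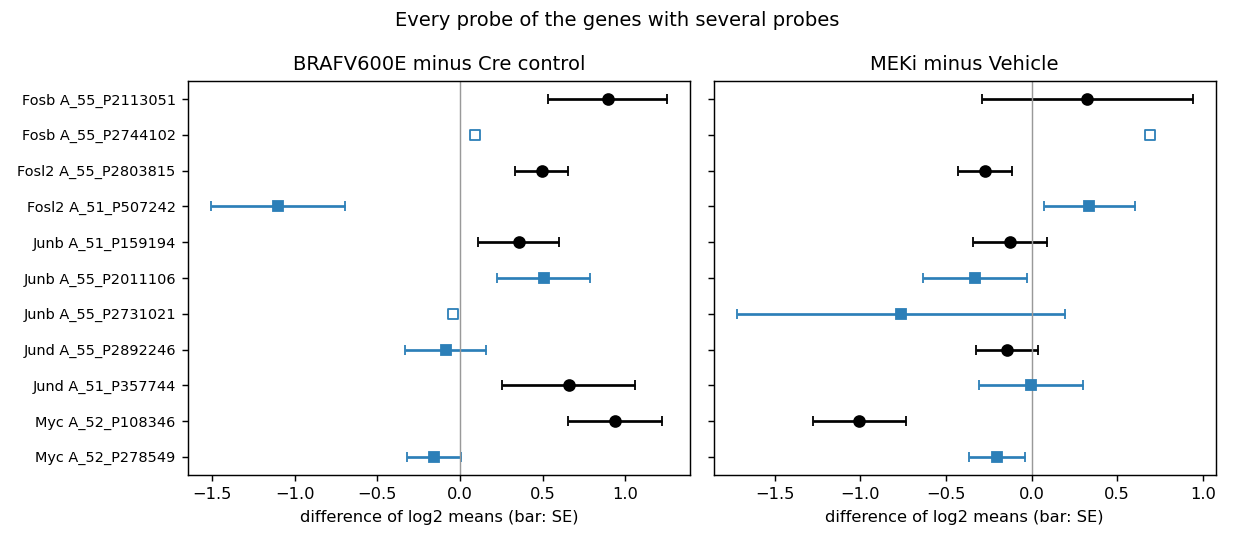
Difference of log2 means with its SE (horizontal axis) for every probe of the 5 genes with several probes, for BRAFV600E minus Cre control and MEKi minus Vehicle. Black circles are the probes that stand for the gene, blue squares the others, and open squares probes that were too dim to be tested. The 2 Fosl2 probes lie on opposite sides of 0 in both panels.

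Whether the genes vary together from mouse to mouse was examined on deviations from the group mean over the 20 arrays, for all 45 pairs, with a two-sided permutation test of 100000 permutations within groups and Benjamini-Hochberg adjustment over the pairs. At an adjusted p under 0.05 there were 2 pairs, and the median r over the 45 pairs was 0.20. Junb and Myc varied inversely, with r = −0.94 (adjusted p 0.000900 by permutation) and rho = −0.86 (adjusted p 0.00180 by permutation). Without the 2 arrays farthest from the Junb median, Cre control replicate 1 and MEKi replicate 3, r was −0.89. It was −0.96 within the mutant experiment and −0.88 within the inhibitor experiment, −0.98 among the arrays of slide 1, and −0.94 when deviations were taken within each slide. No r was computed for slide 2, which held BRAFV600E replicates 3 to 6. On those arrays, in that order, Junb was at 4.58, 4.63, 4.77 and 4.61 and Myc at 0.12, −0.15, −0.33 and −0.41.

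Junb had the most negative r with Myc of the 18357 other genes tested in both comparisons. Seen from Junb, 1 gene had a more negative r than Myc, and 11 genes, Myc included, lay below −0.9. The relation of Junb and Myc passed the test with each of the 20 arrays left out in turn, r running from −0.95 to −0.90. It belonged to 1 probe of each gene: the brighter Junb probe with the dimmer Myc probe gave r = −0.26, the dimmer Junb probe with the brighter Myc probe 0.19, and both dimmer probes 0.44. Without scaling between arrays r was −0.12, and with the median of all probes of each gene 0.38. The arrays' own properties moved with both genes: the share of spots well above background correlated with Junb at −0.63 and with Myc at 0.53, and its part in the relation was not tested.

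Fosl1 and Egr1 varied in the same direction, with r = 0.64 (adjusted p 0.0389 by permutation) and rho = 0.74 (adjusted p 0.0106 by permutation). Without Cre control replicates 1 and 6, the 2 farthest arrays, r was 0.69, and it was 0.65 in the mutant and 0.68 in the inhibitor experiment. With deviations taken within each slide r was 0.62 and the adjusted p 0.0589 by permutation. The pair passed in only 5 of the 20 tests with 1 array left out, and 426 other genes had a higher r with Fosl1. Without scaling between arrays r was 0.79, and with normexp background correction 0.51. The log2 75th percentile of the arrays correlated with Fosl1 at 0.47 and with Egr1 at 0.33, and its part in the relation was not tested. Fos and Jun (r = 0.54, adjusted p 0.132 by permutation) and Fos and Fosb (r = 0.57, adjusted p 0.153 by permutation) did not pass.

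By the same measure, the 5 genes most like Fos over the 20 arrays were Mc5r (r = 0.89), Plk3 (0.87), Lyzl4 (0.86), Sox21 (0.85) and Alx1 (0.85). Plk3, a polo-like kinase, is itself an immediate early gene, and the other 4 are in none of the lists used here. Those most like Fosl1 were Negr1 (0.87), Olfr195 (0.87), Polk (0.86), Ttll6 (0.85) and 4933430M04Rik (0.84). Most of these genes were dim. Mean levels of the 5 most like Fosl1 ran from −5.17 for Negr1, well above background on 10 of 20 arrays, to −1.56 for Polk. Those of the 5 most like Fos ran from −3.67 for Alx1 to 0.83 for Plk3. These likenesses are descriptions, picked as the highest of 18357 values each.

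**Figure D4:**
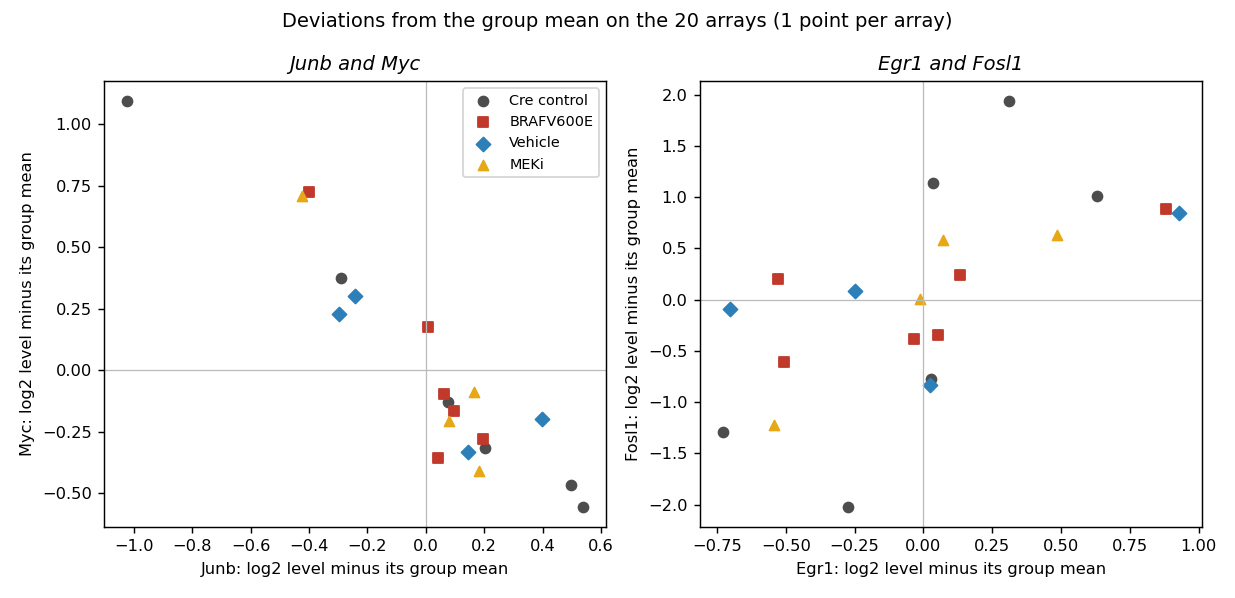
Deviation of each array from its group mean (log2) for Junb and Myc on the left and Egr1 and Fosl1 on the right, with 1 point per array and the groups marked by colour and shape. The Junb and Myc points fall along a descending line (r = −0.94), with Cre control replicate 1 at its upper left end, and the Egr1 and Fosl1 points rise with more scatter (r = 0.64).

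The genes around the 10 give the setting, in lists named for their roles. ERK output genes are genes transcribed under ERK control, here feedback inhibitors, ETS factors and Phlda1. They changed in all 12 cases in BRAFV600E tissue: 11 rose and Etv1 fell by 0.73. Etv4 rose by 2.50 ± 0.27, Spry4 by 2.19 ± 0.28, Phlda1 by 1.76 ± 0.35 and Dusp4 by 1.65 ± 0.19 (log2, SE), and the list's median was 0.93. Under MEKi 7 of the 12 fell, 0 rose and the median was −1.55, with Etv4 lower by 2.95 on the log2 scale. With 1 array left out 4 to 9 of the 12 passed, the 4 being without Vehicle replicate 4. Within slide 1 alone 4 of the 12 passed in the mutant comparison, and over the arrays with a spike-in slope in range 1 of the 12 did.

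Of the 31 other immediate early genes 29 were tested, and in BRAFV600E tissue 4 rose and 0 fell, with a median of 0.31, where 12.4% of all genes were called. With 1 array left out 2 to 5 passed, the 2 being without Cre control replicate 2 or 5 or BRAFV600E replicate 1 or 4. The 4 that rose with all arrays in were Ccn2, a secreted matrix protein, by 1.79 ± 0.25 (log2, SE), Plk3 by 1.53 ± 0.24, the zinc finger factor Klf10 by 1.18 ± 0.31 and the small GTPase Rhob by 0.80 ± 0.22. Under MEKi 1 of 29 passed, Socs3, an inhibitor of cytokine signalling, which rose by 1.18 ± 0.18, and the median was −0.02.

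Of the 12 leucine zipper genes whose proteins pair with AP-1 members, the small MAF genes Maff (0.96 ± 0.18, log2, SE) and Mafk (0.43 ± 0.11) rose in BRAFV600E tissue and Atf7 fell by 2.27 on the log2 scale. Under MEKi Maff fell by 1.08. Maff was thus called in opposite directions in the 2 comparisons, though with any 1 array left out 0 or 1 of the 12 passed under MEKi. Of the serum response factor group, Srf with its ETS and MRTF cofactors, 1 of 6 passed in BRAFV600E tissue, Elk1, which fell by 0.69, and 0 of 6 under MEKi. The Elk1 probe had means of 8.93 in Cre control and 8.23 in BRAFV600E mice, close to the epithelial marker Fabp2 at 8.87 and 8.20. Whether this probe reads Elk1 alone was not tested.

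Of 16 genes known as AP-1 targets in other cells, Plaur, the urokinase receptor, was the only 1 called in BRAFV600E tissue, where it rose by 0.89 ± 0.25. Under MEKi Plaur fell by 1.74 and Cd44, a hyaluronan receptor, by 0.91, with the other 14 not called. The list's medians were −0.08 and −0.14, and with 1 array left out between 0 and 2 of the 16 passed under MEKi.

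The MYC target genes listed mostly serve ribosome and nucleotide production. In BRAFV600E tissue 5 of 19 rose, among them Hspd1 (0.79), Cad (0.75), Ddx21 (0.68) and Ncl (0.68), 0 fell, and the log2 fold change was above 0 for 18 of 19, with a median of 0.40. Under MEKi Srm fell by 1.36, Nolc1 by 0.92 and Nop16 by 0.73, no gene of the 19 was above 0 and the median was −0.57. Srm was called in both comparisons, having risen by 0.53 in BRAFV600E tissue. In the mutant comparison 0 of the 19 passed with slide as a block, 2 after quantile normalization, and 2 to 8 with 1 array left out (8 without Cre control replicate 1, 2 without replicate 3, and 3 without replicate 2 or 5). Under MEKi 0 or 1 passed with 1 array left out. Of the 12 partners and competitors of MYC, Mycn fell by 0.97 and Mlxipl by 0.50 in BRAFV600E tissue, and 0 passed under MEKi.

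Of the 11 kinases and ligases that act on these proteins, Cop1, a ligase that degrades JUN, rose by 0.58 ± 0.13 and Usp28, which removes ubiquitin from MYC and JUN, by 0.56 ± 0.14 in BRAFV600E tissue, and 0 passed under MEKi. Heat shock genes, a general stress list, had 0 of 10 called in either comparison. Hspd1, which rose by 0.79 in BRAFV600E tissue, was counted among the MYC target genes and not in this list.

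**Figure D5:**
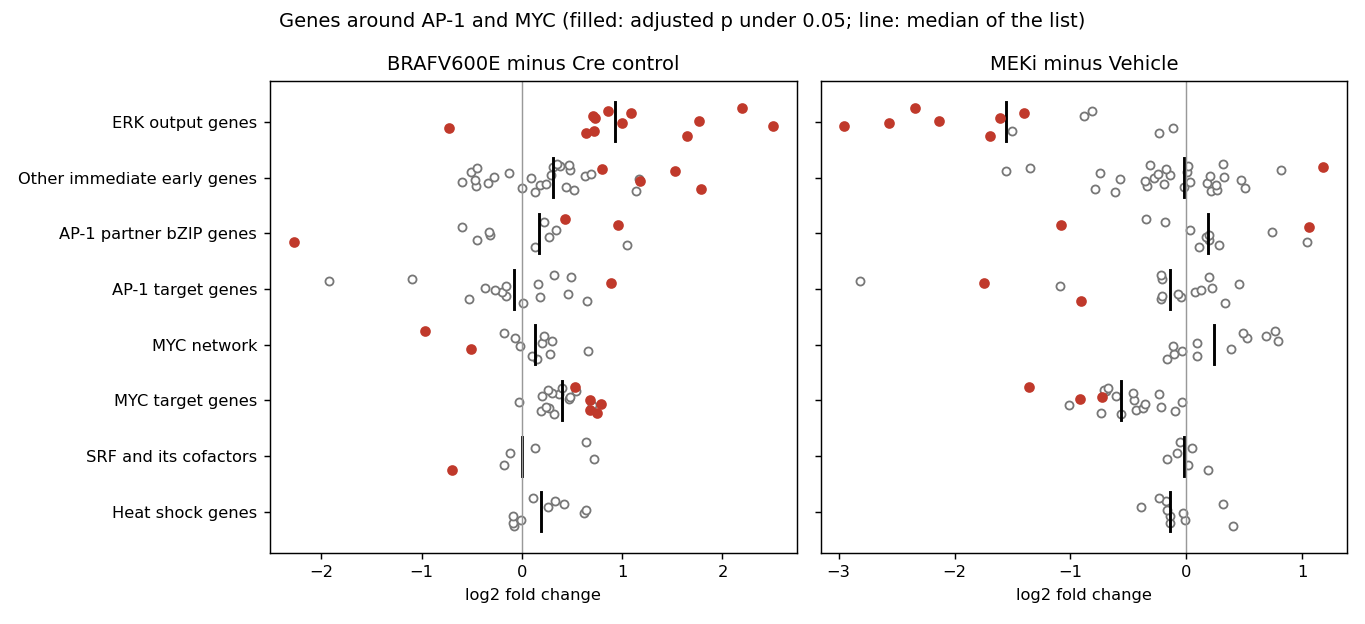
Log2 fold change (horizontal axis) of each gene tested in 8 of the lists, for BRAFV600E minus Cre control and MEKi minus Vehicle, with filled points for an adjusted p under 0.05 and a line at the list's median. The medians of the ERK output genes are 0.93 on the left and −1.55 on the right.

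Markers of other cells moved with the mutant comparison too. Myeloid markers were lower in all 7 cases (median −0.69), with Lyz2 down by 1.75 and Csf1r by 0.69, and their mean level ran from 0.73 to 2.54 in BRAFV600E and from 1.48 to 3.71 in Cre control arrays. Lyz2 had a mean of 7.91 in Cre control mice, the next highest of the 7 being Itgam at 5.21. The study used lysozyme as a marker of Paneth cells, and which cells the Lyz2 probe reads was not tested. T lymphoid markers were lower in all 4 cases (median −0.91), with Cd3g and Cd8a called, and their mean level ran from −0.91 to 0.48 in BRAFV600E and from 0.04 to 1.45 in Cre control arrays. Of the 4 dividing cell markers Cdk1 was called, up by 1.15, and all 4 were above 0 (median 0.55). Of the 5 smooth muscle markers Des was called, up by 0.94, and all 5 were above 0 (median 0.28). Of the 9 epithelial markers Alpi rose by 1.84. The log2 fold change was above 0 for 3 of those 9 (median −0.11). Chosen after its value was seen, Lct, the lactase of the brush border, stood at −2.89 ± 1.31 (SE) and was not called, although all 6 BRAFV600E arrays lay below all Cre control arrays. None of the B lymphoid and exocrine pancreas markers was called. Under MEKi no marker of these lists was called, and T lymphoid markers were above 0 in 4 of 4 cases (median 0.85). The part of these cell markers in the changes of the 10 genes was not tested.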

How the data were processed

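The 1-colour arrays were scanned by the authors and read out with Agilent Feature Extraction 10.5.1.1 (submitters' processing notes). The deposited values used here are the processed intensity per spot, background-subtracted and on a linear scale, together with 0 or 1 marks per spot, and the series matrix holds that intensity unchanged. Signals were put on the log2 scale, each array's 75th percentile over non-control spots was subtracted, and control spots and outlier-marked spots were left out. Probes were named through RefSeq genes (GRCm38.p6) by accession (34023), symbol (9993) or synonym (318). The brightest probe over the 20 arrays stood for a gene. Probe coordinates are those of the files (mm9).

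Groups came from the labels, and replicate numbers only name arrays. Genes well above background on at least 6 of 12 or 4 of 8 arrays were tested with limma 3.58.1 in R 4.3.3 without covariates, on the arrays of each comparison alone, and called at an adjusted p under 0.05, two-sided. The fits and the permutation test were tested on simulated data. The number of arrays limits the precision. Alternatives changed the scaling, background correction, filter, probe choice, slide term, arrays and a Y-linked covariate. The genes and lists were chosen with earlier results of these data known, and list genes were named as the up to 4 largest called changes per list and direction and those called in both comparisons, except that 1 result is not reported here. An alternative on arrays with a spike-in slope between 0.9 and 1.2, and one taking deviations within slides, were chosen after seeing the data.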

Additional observations from a re-analysis of the deposited data

Results flagged for a closer look

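Of the 40 sets of levels (10 genes in 4 groups), 4 held an array far from the others by Dixon's criterion, which chance meets in about 1 of 20 sets. Fos on MEKi replicate 2 was 3.80, above the other MEKi arrays at 2.94 to 3.06. Ier3 on Cre control replicate 2 was −0.42, above the other controls at −1.38 to −1.10. Junb on BRAFV600E replicate 1 was 4.17, below the other mutants at 4.58 to 4.77, and on MEKi replicate 3 it was 3.70, below the others at 4.21 to 4.31. On both of those arrays Myc was the highest of its group, at 0.67 and −0.57.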

How the results depend on the processing

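No paired analysis was possible because the labels give no replicate numbers shared between groups. In BRAFV600E against Cre control, 2369 genes and 2 of the 10 were called. Leaving out 1 array gave 1442 to 2858 genes and 1 to 2 of the 10, with Egr1 called each time. Without scaling 9332 genes were called, 98.1% of them higher, against 49.7% in the fit reported, with 9 of the 10, the median of all genes moving to 0.79. With normexp correction 4642 genes were called, 34.2% higher, with 3 of the 10, and Fosl1 turned to −0.31. Probes tested singly gave 3591 calls and 1 of the 10, slide as a block 1535 and 1, slide 1 alone 734 and 0, and arrays with a spike-in slope in range 29 and 0. Without a filter, with the median of probes or with the Y-linked covariate 1 of the 10 was called, and the median of probes turned Fosl2 to −0.30.

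In MEKi against Vehicle, 380 genes and 0 of the 10 were called, and 0 of the 10 under every alternative. The genes called numbered 72 without scaling, 234 without a filter, 217 with the median of probes, 1129 with array weights and 53 with the Y-linked covariate, and 76 to 376 with 1 array left out. Signs turned for Fosl2 (0.0327, median of probes), Fosb (−0.0777 with array weights, −0.82 with the covariate) and Jun (−0.0659, covariate). With 1 array left out Fos ran from −0.25 to 0.18, above 0 without MEKi replicate 1, MEKi replicate 4 or Vehicle replicate 3. Junb ran from −0.22 to 0.0176, above 0 without MEKi replicate 3 or Vehicle replicate 3, and Fosb from −0.10 without Vehicle replicate 4 to 0.94 without Vehicle replicate 3.

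Of the 45 gene pairs 2 passed. By Spearman's rho 5 passed, without scaling 5, with normexp correction 1, within the mutant experiment 1, within the inhibitor experiment 0, within slides 1, and 1 to 4 with 1 array left out. The causes were not tested. Low signal limits Fosl1 most.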
